A study of Homo sapiens with 27 samples.

Results

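The 10 genes described here mark the epithelial and the mesenchymal state of a cell, and they were picked from the array by Ensembl gene ID. They are CDH1 (ENSG00000039068), EPCAM (ENSG00000119888), ESRP1 (ENSG00000104413), ESRP2 (ENSG00000103067) and CTNND1 (ENSG00000198561) on the epithelial side. On the mesenchymal side they are CDH2 (ENSG00000170558), VIM (ENSG00000026025), FN1 (ENSG00000115414), ZEB1 (ENSG00000148516) and SNAI2 (ENSG00000019549). Of these, 9 had signals among the 16733 genes with splicing events, and SNAI2, a zinc finger repressor of epithelial genes, was not analysed here because it had 0 events in this set. The 9 genes held 60 of the 73554 splicing events, with 1 event for CDH2, 4 each for CDH1 and ESRP2, 6 for EPCAM, 7 each for VIM, ZEB1 and ESRP1, 8 for CTNND1 and 16 for FN1.

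The RNA came from A549, an established epithelial cell line of human lung adenocarcinoma, and was measured on HTA 2.0 arrays, whose probes lie in exons and across exon junctions. Lipofectamine cells received only the transfection vehicle Lipofectamine 2000, scramble siRNA cells received an siRNA with a scrambled sequence, and SRSF1 siRNA cells received an siRNA against the SR protein and splicing factor SRSF1. All 3 conditions share the line and the vehicle, and each had 3 samples with 3 hybridizations each, 27 hybridizations in all. The methods describe biological replicates that were each hybridized repeatedly, while the labels number samples and repeats without saying which number is which, and here the 3 sample numbers of a condition stand for its biological replicates. No source used here says that they were separate cultures, so the p-values measure the spread between these samples.

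Epithelial cells are held together by E-cadherin, whose cytoplasmic tail binds the catenins, and by the adhesion molecule EPCAM. In the epithelial to mesenchymal transition, transcription factors of the ZEB and SNAI families bind E-boxes and repress CDH1, while N-cadherin, vimentin and fibronectin rise. The epithelial splicing regulatory proteins ESRP1 and ESRP2 set the epithelial form of many transcripts, CTNND1 among them, and A549 cells are known to carry markers of both states.

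Each AS event is described by a reference path, which both isoforms share, and by the alternative path 1 and path 2. Signals are log2 values normalized over all arrays, and the signal of a gene is the mean over the reference paths of its events. Different probes respond differently, so levels are compared between samples and never between genes. Genes and events that did not exceed a log2 signal of 5.77 were not tested, which left 7 of the 9 genes and 27 of the 60 events (45% of them, against 35.1% of all events). The arrays of the 3 conditions had medians between 6.23 and 6.33, which the quantile normalization over all arrays brought close together.

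In the main comparison, SRSF1 siRNA against scramble siRNA, VIM, CDH2, ZEB1 and also CDH1 fell, while CTNND1, FN1 and ESRP2 did not pass the test. Thus 4 of the 7 tested genes were lower and 0 were higher at an adjusted p under 0.05 (limma over 12545 genes, Benjamini-Hochberg). Over all genes, 27.0% were lower and 28.5% were higher. Of the 7 genes, 5 had no overlap between the conditions, against 65.3% of all genes. The median change of the 7 genes was -0.39, against 0.04 for all genes tested. The genes that fell included both the epithelial and the mesenchymal cadherin.

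**Figure D1:**
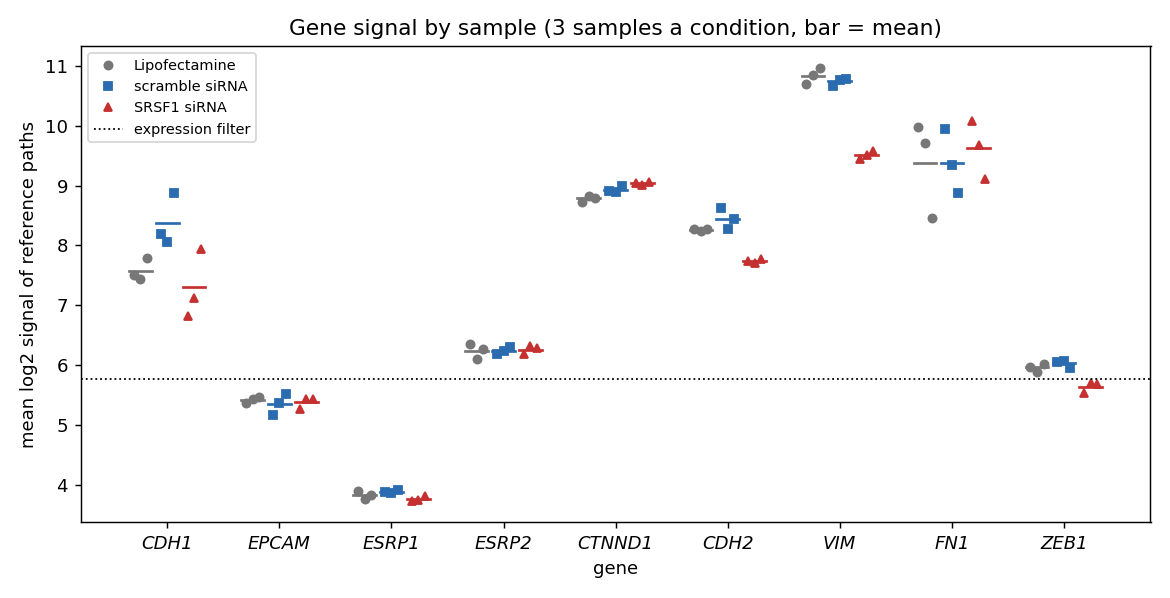
Mean log2 signal of the reference paths (vertical axis) for each gene (horizontal axis) in the 3 samples of each condition, with a bar at the mean and a dotted line at the expression filter of 5.77. VIM, CDH2 and ZEB1 are lower in all 3 SRSF1 siRNA samples than in the other 6 samples, and FN1 and CDH1 spread widely within each condition. Positions of different genes on the axis cannot be compared.

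VIM encodes vimentin, the intermediate filament of mesenchymal cells. Its signal was 10.69, 10.84 and 10.97 in the Lipofectamine samples 1 to 3, 10.67, 10.77 and 10.79 with scramble siRNA, then 9.45, 9.51 and 9.58 with SRSF1 siRNA. The SRSF1 siRNA samples lay below all other samples, and the other conditions overlapped. VIM fell by 1.23 (SE 0.07, limma adjusted p = 2.22e-08) against scramble siRNA, a 2.345-fold lower signal. Against Lipofectamine it fell by 1.32 (SE 0.07, adjusted p = 1.57e-08), or 2.50-fold. Only 1.82% of all genes changed more against scramble siRNA, and 0.988% against Lipofectamine. Between scramble siRNA and Lipofectamine the difference was -0.09 (adjusted p = 0.416). Both comparisons with SRSF1 siRNA use the same SRSF1 siRNA samples.

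CDH2 encodes N-cadherin, the adhesion receptor that replaces E-cadherin in mesenchymal cells. Its single reference path gave 8.28, 8.25 and 8.27 with Lipofectamine, 8.62, 8.28 and 8.44 with scramble siRNA, then 7.75, 7.70 and 7.78 with SRSF1 siRNA. Again the SRSF1 siRNA samples were the lowest, and the scramble siRNA samples lay just above the Lipofectamine ones. The gene fell by 0.70 (SE 0.07, limma adjusted p = 3.56e-06) against scramble siRNA and by 0.52 (SE 0.07, adjusted p = 5.29e-05) against Lipofectamine. The difference between scramble siRNA and Lipofectamine, 0.18 (SE 0.07), missed the threshold at an adjusted p of 0.0949. It passed at 0.0339 with the sample number as a block, which treats samples of the same number as pairs. It also passed at 0.0171 without scramble siRNA sample 2 (0.26), and shrank to 0.10 without scramble siRNA sample 1.

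ZEB1 encodes a zinc finger repressor of CDH1. Its mean signal was 5.98, 5.90 and 6.02 with Lipofectamine, 6.06, 6.07 and 5.96 with scramble siRNA, then 5.53, 5.70 and 5.68 with SRSF1 siRNA, near the filter on expression throughout. All SRSF1 siRNA values of this mean were under the filter, and all Lipofectamine and scramble siRNA values were above it. The gene thus entered the test only through the conditions where it was high, a limit on both calls below. Although the shift was small, the SRSF1 siRNA samples did not overlap with the others. ZEB1 fell by 0.39 (SE 0.06, limma adjusted p = 8.89e-05) against scramble siRNA and by 0.33 (SE 0.06, adjusted p = 4.23e-04) against Lipofectamine. A share of 23.8% of all genes changed more than ZEB1 in the main comparison. The mean hides a difference between probe sets: the reference of event 7 was 8.19, 8.21 and 7.98 with scramble siRNA, then 7.21, 7.21 and 7.34 with SRSF1 siRNA, a fall by 0.88 (adjusted p = 6.35e-06), whereas the references of other ZEB1 events averaged as little as 3.81 over the 9 samples. Some ZEB1 signals above the filter did not fall. Path 1 of event 25 averaged 7.80 with scramble siRNA and 7.84 with SRSF1 siRNA, a change of 0.04, and its path 2 changed by 0.02. The conditions overlapped in both paths.

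The 5′ ends of these 3 genes are shown because they fell together and because the E-box CACCTG is the motif that ZEB and SNAI factors bind. The windows run from 250 bases before to 50 bases after a RefSeq gene start on GRCh38.p14, 5′ to 3′ along the gene, in lower case with the motif in capitals, as CACCTG or, for the other strand, CAGGTG. Only VIM, CDH2, ZEB1 and FN1 had windows to search. The CDH2 window is that of the first of 2 listed starts (chr18:28177081-28177380, minus strand), the VIM window is chr10:17227991-17228290 on the plus strand and the ZEB1 window is that of the third of 7 starts (chr10:31318966-31319265, plus strand).
VIM: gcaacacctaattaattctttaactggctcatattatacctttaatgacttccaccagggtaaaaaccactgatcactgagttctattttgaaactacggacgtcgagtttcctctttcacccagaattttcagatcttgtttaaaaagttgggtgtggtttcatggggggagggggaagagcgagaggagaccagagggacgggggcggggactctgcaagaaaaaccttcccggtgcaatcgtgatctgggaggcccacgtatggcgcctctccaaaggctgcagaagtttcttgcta
CDH2: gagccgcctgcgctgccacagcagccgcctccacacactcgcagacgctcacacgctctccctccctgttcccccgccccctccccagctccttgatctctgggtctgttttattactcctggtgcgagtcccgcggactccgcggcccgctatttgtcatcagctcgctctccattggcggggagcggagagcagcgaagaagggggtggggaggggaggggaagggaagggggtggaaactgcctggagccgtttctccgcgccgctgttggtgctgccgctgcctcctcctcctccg
ZEB1: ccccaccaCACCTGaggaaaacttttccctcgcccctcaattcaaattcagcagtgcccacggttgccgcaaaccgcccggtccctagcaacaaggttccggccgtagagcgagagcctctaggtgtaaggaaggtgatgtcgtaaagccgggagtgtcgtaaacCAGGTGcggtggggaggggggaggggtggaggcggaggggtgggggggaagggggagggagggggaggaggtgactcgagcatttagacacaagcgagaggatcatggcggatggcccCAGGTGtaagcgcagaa
The third ZEB1 start held 3 matches. They began 242 and 85 bases before the start and 33 bases after it, the first on the strand of the gene and the others on the opposite strand. The first ZEB1 start held 1 match, 57 bases before it, and the other 5 windows of ZEB1 held 0. The VIM window, both CDH2 windows and the FN1 window held 0 matches. The motif stood in 20.6% of all 35116 windows of this kind, so these letters are common, and a match describes the sequence and not a bound site.

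CDH1 encodes E-cadherin, the central adhesion receptor of epithelial cells. Its signal was 7.50, 7.44 and 7.80 with Lipofectamine, 8.19, 8.05 and 8.88 with scramble siRNA, then 6.83, 7.13 and 7.94 with SRSF1 siRNA. The scramble siRNA samples were the highest of all, while the Lipofectamine and SRSF1 siRNA samples overlapped. CDH1 fell by 1.08 (SE 0.25, limma adjusted p = 0.00301) against scramble siRNA, a 2.11-fold lower signal. Sample by sample, the difference was -1.36, -0.93 and -0.94 for the numbers 1 to 3.

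The same scramble siRNA samples were higher in CDH1 than the vehicle alone, by 0.80 (SE 0.25, adjusted p = 0.045), and only 0.51% of all genes differed more in that comparison. In that comparison 2 of the 7 genes were higher and 0 lower, against 11.1% and 9.02% of all genes, and 3 of the 7 did not overlap, against 33.0%. The call on CDH1 was lost at an adjusted p between 0.0501 and 0.157 without Lipofectamine sample 1, 2 or 3, scramble siRNA sample 1 or 3, or SRSF1 siRNA sample 2. With the sample number as a block it held at 1.2e-04. Against Lipofectamine, SRSF1 siRNA gave -0.28 (SE 0.25, limma adjusted p = 0.388) for CDH1, the differences being -0.67, -0.31 and 0.14 for the sample numbers 1 to 3. This became a call with the sample number as a block (adjusted p = 0.0391) and without SRSF1 siRNA sample 3 (-0.60, adjusted p = 0.0266), whereas it was only -0.047 without SRSF1 siRNA sample 1 and -0.17 without Lipofectamine sample 3.

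**Figure D2:**
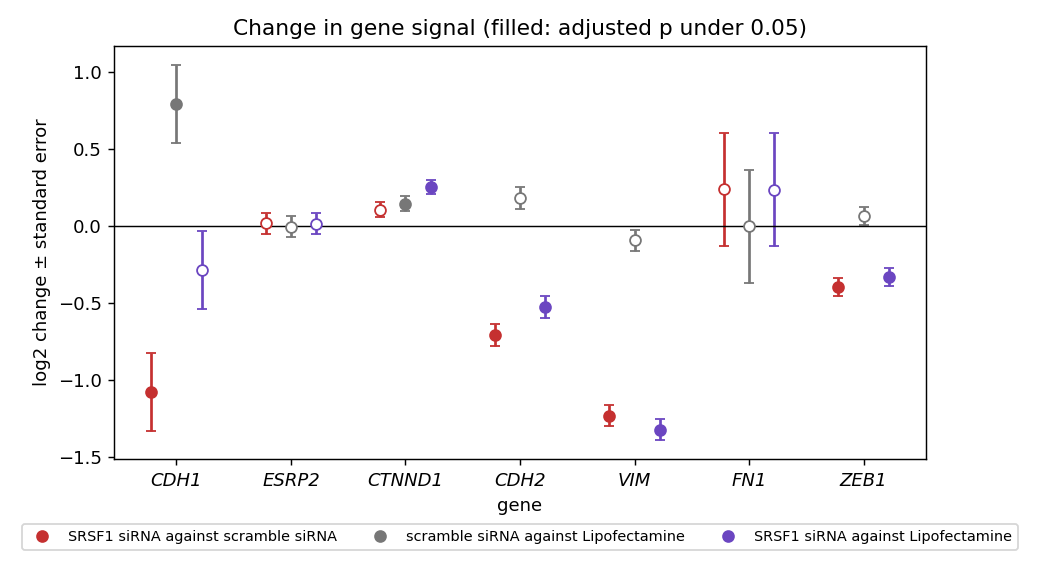
Log2 change of the gene signal (vertical axis) with its standard error for the 7 tested genes (horizontal axis) in the 3 comparisons, 3 samples a condition; filled points passed an adjusted p of 0.05. VIM, CDH2 and ZEB1 are below 0 in both comparisons of SRSF1 siRNA, and CDH1 is below 0 against scramble siRNA (-1.08) but above 0 for scramble siRNA against Lipofectamine (0.80).

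CTNND1 encodes p120 catenin, which binds and stabilizes cadherins at the membrane. Its signal was 8.73, 8.83 and 8.80 with Lipofectamine, 8.91, 8.89 and 8.99 with scramble siRNA, then 9.04, 9.01 and 9.07 with SRSF1 siRNA. The conditions followed this order without overlap. SRSF1 siRNA was higher than Lipofectamine by 0.26 (SE 0.05, limma adjusted p = 7.13e-04), the only rise among the 7 genes in that comparison, in which VIM, CDH2 and ZEB1 were the 3 that fell (background 27.7% higher and 24.1% lower, with 4 of 7 not overlapping against 59.1%). Against scramble siRNA the difference of 0.11 (SE 0.05) missed the threshold at an adjusted p of 0.0779, and passed it at 0.0425 without scramble siRNA sample 3. It also passed with the median of the references (0.20, adjusted p = 0.0447), with the mean of all paths (0.13, 0.0227), with hybridization 2 alone (0.17, 0.0445) and with the replicate number as the biological replicate (0.00752), while the call against Lipofectamine was lost with hybridization 1 alone (0.0522). The rise of 0.15 (SE 0.05) of scramble siRNA over Lipofectamine passed at 0.0498 and was lost without any single sample other than Lipofectamine sample 2, at an adjusted p between 0.0656 and 0.153. With the sample number as a block it held at 0.0327.

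FN1 encodes fibronectin, a matrix protein that mesenchymal cells secrete. It gave 9.98, 9.71 and 8.45 with Lipofectamine, 9.94, 9.34 and 8.87 with scramble siRNA, then 10.07, 9.68 and 9.11 with SRSF1 siRNA. The conditions overlapped almost entirely, and sample 3 was the lowest in each. The change was 0.24 (SE 0.37, limma adjusted p = 0.601) against scramble siRNA and 0.24 (adjusted p = 0.62) against Lipofectamine. Number by number, SRSF1 siRNA differed from scramble siRNA by 0.14, 0.34 and 0.24, up in all 3, and from Lipofectamine by 0.09, -0.03 and 0.66. With the replicate number of the labels as the biological replicate, which averages over the sample numbers, both changes were called (limma adjusted p = 5.44e-06 and 6.27e-06). These p-values leave out the spread between sample numbers, a mean SD of 0.61 in FN1. They rest on the spread between replicate numbers, a mean SD of 0.015.

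ESRP2 gave 6.36, 6.10 and 6.28 with Lipofectamine, 6.19, 6.24 and 6.31 with scramble siRNA, then 6.18, 6.32 and 6.29 with SRSF1 siRNA. The conditions overlapped, and the change against scramble siRNA was 0.02 (SE 0.07, limma adjusted p = 0.826). ESRP1, as the mean of its reference paths, was low in every sample, although single paths reached 7.98. It had 3.91, 3.77 and 3.83 with Lipofectamine, 3.88, 3.86 and 3.92 with scramble siRNA, then 3.74, 3.75 and 3.82 with SRSF1 siRNA, under the filter, so it was not tested.

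EPCAM was also below the filter as a gene, with 5.36, 5.43 and 5.47 for Lipofectamine, 5.17, 5.37 and 5.52 for scramble siRNA and 5.26, 5.44 and 5.44 for SRSF1 siRNA. This mean joins reference paths of unlike strength. The reference of event 5 was at 7.90, 7.74 and 7.90, then 7.75, 7.91 and 7.94, then 7.98, 7.95 and 7.89 in the same order of conditions, and that of event 10 between 3.57 and 4.23. Thus the epithelial marker was measured above the filter by only some of its probe sets, and none of its reference signals separated the conditions in the main comparison.

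**Figure D3:**
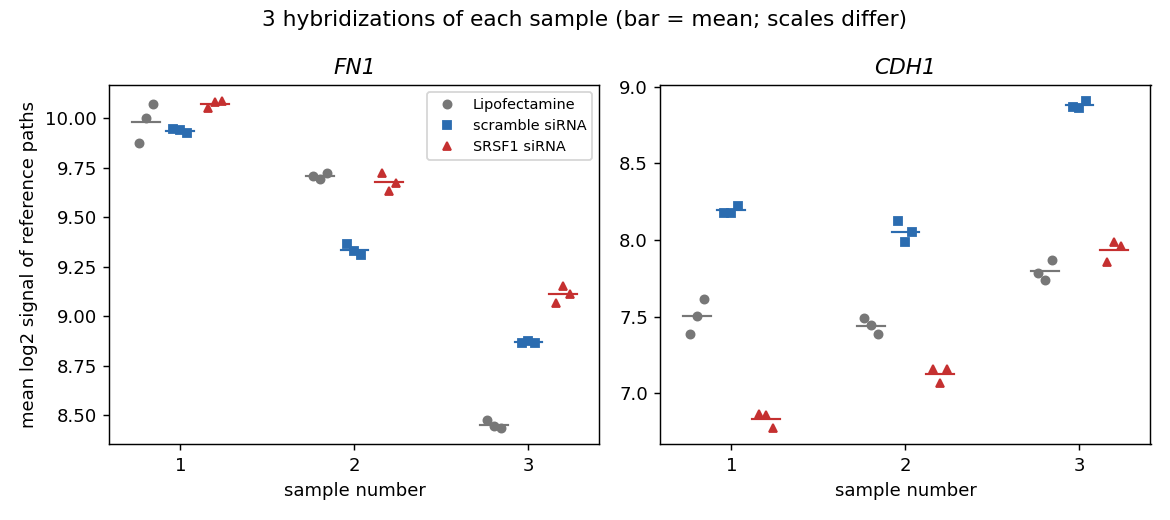
Gene signal (vertical axis, log2) of FN1 and CDH1 by sample number (horizontal axis), with the 3 hybridizations of each sample as points and their mean as a bar. In each condition number 3 has the lowest FN1 and the highest CDH1, and on average the hybridizations of a sample lie closer together than the samples do. For CDH1 with Lipofectamine, the hybridizations of samples 1 and 2 overlap.

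FN1 and CDH1 moved in opposite directions with the sample number. Sample 3 differed in FN1 from the mean of samples 1 and 2 by -1.40 with Lipofectamine, -0.77 in the scramble siRNA samples and -0.76 with SRSF1 siRNA. For CDH1 the same differences were 0.33, 0.76 and 0.96. The pattern ran through the probe sets, since 39 of the 42 distinct FN1 signals were lowest in number 3 in all conditions and 6 of the 9 distinct CDH1 signals were highest. The hybridizations of 1 sample spanned at most 0.20 in FN1 and 0.23 in CDH1. Of 12545 genes, 27 differed between number 3 and the mean of the others in 1 direction by at least 0.33, the smallest difference of CDH1, in all 3 conditions. In 18 of them, CDH1 included, number 3 was the higher, and in 9, FN1 included, the lower. In the remaining members the difference lay between -0.10 and 0.25. The labels do not say what the samples of a number share, and its part in these results was not tested.

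Single paths were then tested one by one, with signals that several events share counted once. Of 105 distinct member signals above the filter, 22 were lower and 11 higher with SRSF1 siRNA than with scramble siRNA (limma, adjusted p under 0.05 over 116045 signals), where 19.0% of all signals were lower and 20.9% higher. All 6 tested CDH1 signals fell, by 0.98 to 1.26. Of the 9 ZEB1 signals 6 fell, and of the 3 CDH2 signals 2 fell. VIM split into 7 signals that fell, 3 that rose and 5 that were not called. Of the 20 CTNND1 signals 5 rose and 1 fell. FN1, with 34 of its 35 signals not called, had a median change of 0.25. ESRP2 and EPCAM had 1 risen signal each, of 8 and 5, and none of the 4 tested ESRP1 signals was called, among paths that reached 7.98.

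**Figure D4:**
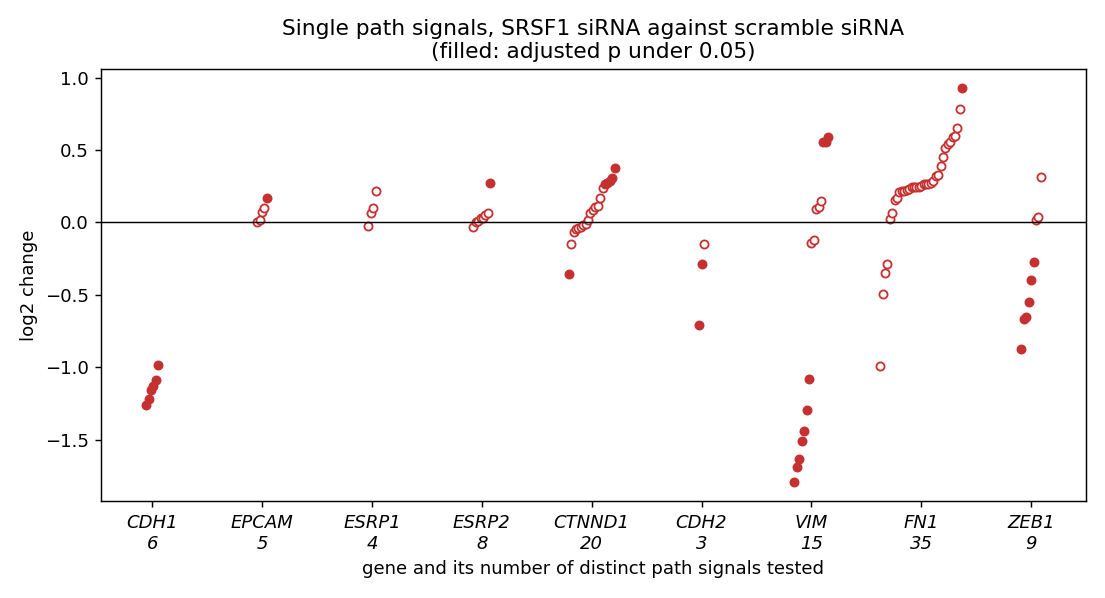
Log2 change of every tested distinct path signal (vertical axis) for SRSF1 siRNA against scramble siRNA, grouped by gene with the number of signals (horizontal axis); filled points passed an adjusted p of 0.05. The CDH1 signals lie together between -1.26 and -0.98, while those of VIM run from -1.79 to 0.59.

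Fewer paths separated scramble siRNA from Lipofectamine, where 3 of the 105 were lower and 1 higher, against 4.12% and 4.35% of all signals. With the sample number as a block, 12 in place of 4 were called. The 6 tested CDH1 signals were higher by 0.73 to 0.96 in this comparison, and 0 of them were called without the block. Against Lipofectamine, SRSF1 siRNA samples were lower in 16 and higher in 11 (background 16.9% and 18.8%), and 38 in place of these 27 were called with the block. In the latter comparison 10 of the 20 CTNND1 signals rose and 0 of the 6 CDH1 signals were called. The shared Lipofectamine, scramble siRNA or SRSF1 siRNA samples link these counts.

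A differentially spliced event needs opposite changes of path 1 and path 2. Among the 27 tested events, 4 passed for SRSF1 siRNA against scramble siRNA (limma over 25805 events, adjusted p under 0.05), where 8.35% of all events were called. They were the VIM events 9, 12 and 13 and the ZEB1 event 11. Against Lipofectamine 2 events passed, VIM event 13 and CTNND1 event 5 (background 6.08%). With the sample number as a block FN1 event 18 passed as well (adjusted p = 1.57e-04), which made 3. Between scramble siRNA and Lipofectamine 0 of 27 passed (background 0.275%). The kind and the position of these events were not analysed here.

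**Figure D5:**
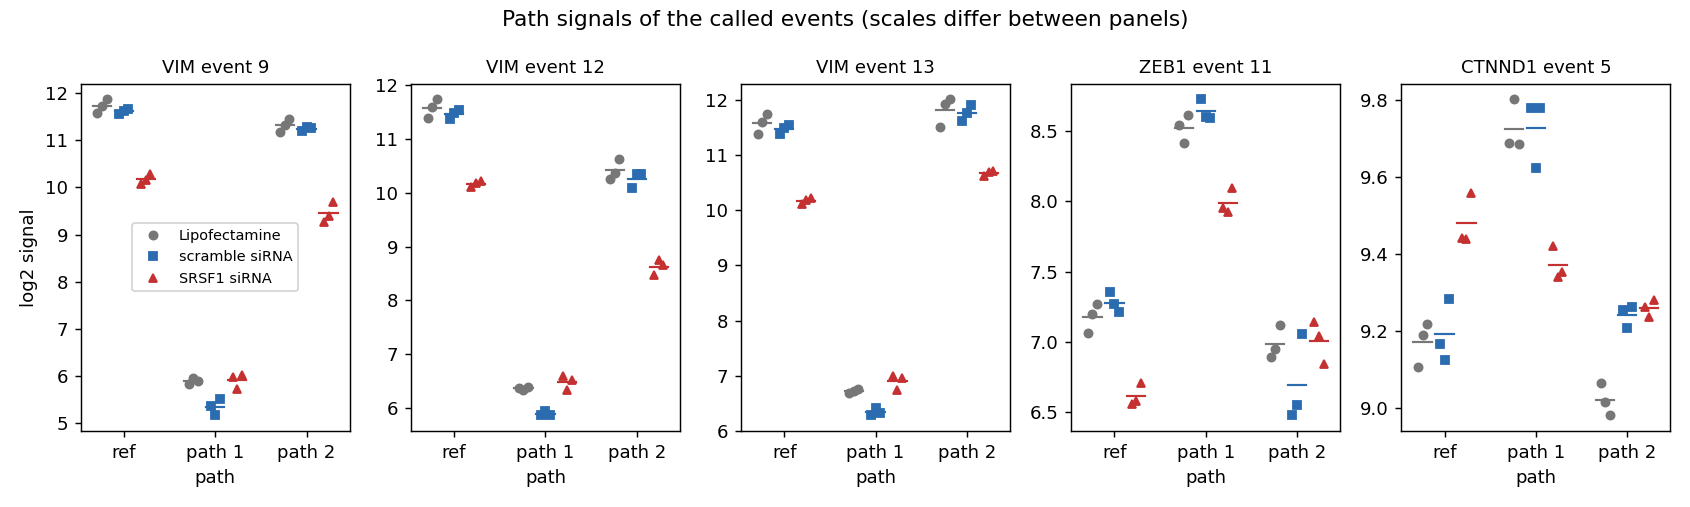
Log2 signal (vertical axis) of the reference, path 1 and path 2 (horizontal axis) in the 3 samples of each condition, with a bar at the mean, for the 5 events called in any comparison. In the 3 VIM events the strong path 2 falls with SRSF1 siRNA while the weak path 1 is lowest with scramble siRNA.

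VIM event 12 ranked 97th of all events tested. Its path 1 was 6.37, 6.33 and 6.38 with Lipofectamine, 5.86, 5.93 and 5.86 with scramble siRNA, then 6.58, 6.32 and 6.53 with SRSF1 siRNA. Path 2 was 10.26, 10.37 and 10.63, then 10.08, 10.35 and 10.35, then 8.48, 8.75 and 8.66. In path 2 only the SRSF1 siRNA samples stood apart, whereas in path 1 the scramble siRNA samples did. Against scramble siRNA, path 1 rose by 0.59 (SE 0.07) and path 2 fell by 1.63 (SE 0.11), with the SEs of the fits of single paths. The limma fit of the event, in which the paths share an SE of 0.10, gave an adjusted p of 2.84e-10. Against Lipofectamine, path 1 differed by 0.12 (adjusted p = 0.275) and the event was not called (adjusted p = 0.164).

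VIM event 13 shared its reference path with event 12. Its path 1 was 6.68, 6.71 and 6.76, then 6.28, 6.41 and 6.33, then 7.00, 6.73 and 6.96 in the order of conditions used so far. Its path 2 was 11.50, 11.92 and 12.01, then 11.61, 11.76 and 11.90, then 10.62, 10.70 and 10.71. Scramble siRNA was again the lowest condition in path 1 and SRSF1 siRNA the lowest in path 2. Path 1 rose by 0.56 and path 2 fell by 1.08 against scramble siRNA (limma adjusted p = 6.13e-09 for the event). The call against Lipofectamine, with 0.18 in path 1 and -1.13 in path 2, stood at an adjusted p of 0.0395. It was lost without Lipofectamine sample 2, scramble siRNA sample 2, or SRSF1 siRNA sample 1 or 3, at an adjusted p between 0.0536 and 0.252.

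VIM event 9 had its path 1 at 5.84, 5.96 and 5.90, then 5.37, 5.17 and 5.52, then 5.99, 5.73 and 6.02 in the same order. Its path 2 was 11.17, 11.32 and 11.45, then 11.18, 11.28 and 11.26, then 9.27, 9.40 and 9.69. The scramble siRNA values of path 1 were under the filter on expression, so in comparisons with scramble siRNA only the higher condition passed it. Path 1 rose by 0.55 and path 2 fell by 1.79 against scramble siRNA (limma adjusted p = 6.46e-09 for the event), and against Lipofectamine path 1 differed by 0.01 and the event was not called (adjusted p = 0.767).

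The 3 weak VIM paths were also the 3 member signals that were lower with scramble siRNA than with Lipofectamine. They fell by 0.54 in event 9 (limma adjusted p = 0.00849), 0.48 in event 12 (0.00353) and 0.38 in event 13 (0.0141), while the gene signal of VIM gave -0.09. With SRSF1 siRNA they differed from the vehicle alone by 0.01, 0.12 and 0.18, and none of these was called. Event 10, the uncalled VIM event with the smallest p, gave -1.30 for path 1 and 0.15 for path 2 (adjusted p = 0.0602). It passed without Lipofectamine sample 1 or 3, scramble siRNA sample 1 or SRSF1 siRNA sample 2, at an adjusted p between 0.00803 and 0.0471.

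Not all VIM probe sets fell. The reference of event 14 was 7.36, 7.05 and 7.11, then 7.29, 7.24 and 7.11, then 7.24, 7.00 and 7.03, and its change of -0.12 against scramble siRNA was not called (limma adjusted p = 0.349). The conditions overlapped there. The other 3 distinct VIM references changed by -1.51, -1.44 and -1.30.

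ZEB1 event 11 was the ZEB1 event called in the main comparison. Path 1 was 8.54, 8.41 and 8.62 with Lipofectamine, 8.73, 8.60 and 8.59 with scramble siRNA, then 7.95, 7.92 and 8.10 with SRSF1 siRNA. Path 2 was 6.89, 6.95 and 7.12, then 6.47, 6.55 and 7.05, then 7.14, 7.04 and 6.84. Path 1 separated SRSF1 siRNA from both controls, whereas path 2 overlapped. The fall of path 1 by 0.65 was called by itself, and the change of 0.31 in path 2 was not (limma adjusted p = 0.0987). Together they gave an adjusted p of 4.73e-04 for the event, with 0.713 against Lipofectamine. The event was lost when the samples of number 1 (adjusted p = 0.242) or number 2 (0.106) were left out of every condition. In ZEB1 event 29 both paths fell, by 0.40 and 0.27, so it was not called (adjusted p = 1).

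CTNND1 event 5 was called only against Lipofectamine. Its path 1 was 9.69, 9.80 and 9.68 with Lipofectamine, 9.78, 9.62 and 9.78 with scramble siRNA, then 9.42, 9.34 and 9.35 with SRSF1 siRNA. Its path 2 was 9.06, 9.01 and 8.98, then 9.25, 9.21 and 9.26, then 9.26, 9.24 and 9.28. SRSF1 siRNA stood apart in path 1, while in path 2 the vehicle stood apart from both siRNAs. Path 1 fell by 0.35 and path 2 rose by 0.24 against Lipofectamine (limma adjusted p = 9.68e-06 for the event). Against scramble siRNA path 1 fell by 0.36, path 2 gave 0.02 with 0.594 as the adjusted p of the event. The same path 2 rose by 0.22 (adjusted p = 0.0376) from Lipofectamine to scramble siRNA.

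A further CTNND1 path rose in single signal without reaching the filter. Path 2 of event 15 was 3.81, 3.63 and 3.63, then 3.86, 3.64 and 4.38, then 5.41, 5.14 and 4.99, so the SRSF1 siRNA samples were the highest. Path 2 of ZEB1 event 7 was likewise low and highest with SRSF1 siRNA, at 4.87, 4.68 and 4.87, then 4.80, 4.81 and 5.03, then 5.37, 5.44 and 5.39. Both were chosen after their values were seen and were not tested. CTNND1 event 22, the uncalled event of the gene with the smallest p in the main comparison, had 0.27 in path 1, -0.07 in path 2 and a limma adjusted p of 0.224.

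FN1 event 18 came closest to a call among the 9 tested FN1 events. Path 1 was 6.11, 5.55 and 4.63 with Lipofectamine, 5.77, 5.32 and 4.82 with scramble siRNA, then 6.93, 6.08 and 5.26 with SRSF1 siRNA. Path 2 was 6.79, 5.80 and 5.18, then 6.79, 5.77 and 5.61, then 5.01, 5.00 and 5.19. Path 1 was lowest in number 3 of every condition, while path 2 was so only in the controls and varied little with SRSF1 siRNA. All SRSF1 siRNA values of path 2 were under the filter of 5.77. The event thus entered the test only through control samples in which path 2 was high, a limit that also holds for its calls with the block. The changes were 0.79 and -0.99 (limma adjusted p = 0.0583 for the event), and the event passed without Lipofectamine sample 1 or 3 or SRSF1 siRNA sample 3, at an adjusted p between 0.0156 and 0.0339. The only FN1 path called by itself was path 2 of event 29, which rose by 0.93 (adjusted p = 0.0468), from 4.87, 4.57 and 4.37 to 6.26, 5.49 and 4.84. It exceeded the filter only in SRSF1 siRNA sample 1, so it entered the test through the condition where it was high. Over all 3 conditions, no other called member signal did so. Within the comparisons with scramble siRNA, path 1 of VIM event 9 did as well, since all its scramble siRNA values were under the filter.

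For the other members no event was called. In the CDH2 event 2 path 1 gave -0.29 and path 2 gave -0.15 (limma adjusted p = 1). In the ESRP2 event 6 they were 0.27 and 0.05, and in the EPCAM event 5 path 1 gave 0.10, both at an adjusted p of 1. The 4 CDH1 events could not be tested because 1 path of each stayed between 2.32 and 5.33, below the filter. Of the 7 ESRP1 events 0 were tested, since all their reference signals were at most 4.73.

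Among all tested genes, the profile over the 9 samples closest to VIM, after each gene was centred on its mean, was that of ENSG00000185697, at a Euclidean distance of 0.173. Its change against scramble siRNA was -1.34. Closest to CDH1 was ENSG00000148584, at 0.603, with changes of -1.14 against scramble siRNA and 0.67 for scramble siRNA against Lipofectamine. Among the members, CDH2 was the nearest to both, at position 855 of all genes for VIM and 210 for CDH1. The sources used here do not pair these 2 IDs with names.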

How the data were processed

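The members and gene lists were chosen with earlier results of these data known. The authors mapped the probes of the HTA 2.0 array with Bowtie 2.0 to Ensembl transcripts (Ensembl 74 in the methods, Ensembl 75 in the supplementary methods), and grouped them by path, without probes that matched over 3 genes. The deposited log2 signals, 1 for each path and hybridization, had been background corrected, quantile normalized and summarized by the authors with RMA. The mean of the 3 hybridizations was taken for each of the 9 samples, and all conditions entered 1 fit in limma 3.58.1 (R 4.3.3; data.table, version 1.17.8). All 3 paths of an event shared 1 spread, and the one-sided p-values of path 1 and path 2 for opposite changes were added and their sum tested against the triangular distribution. The paths of a sample entered this fit as separate observations, which gave 26.06 residual and prior degrees of freedom from 9 samples. The event p-values therefore do not allow for paths of 1 sample that move together. Genes and single paths were fitted one by one. P-values were adjusted by Benjamini-Hochberg over everything tested. Events and genes were tested where the signal passed the 25% quantile of the highest reference signals, a log2 signal of 5.77. The 3 samples of each condition limit the precision. The fits of events, genes and single paths were tested on simulated data.

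All members were named with their samples. Of their events, those called in any comparison were described, and of the others the 1 per gene with the smallest p in the main comparison. Gene IDs were paired with names only for the members; 0 IDs matched the reference table, so SRSF1, the lists of other epithelial, mesenchymal, spliced and adhesion genes and the cell type markers, EPCAM aside, were not analysed here, and the labels were not checked against SRSF1.

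The labels repeat the sample numbers 1 to 3 in each condition. Deviations from the condition means were correlated over the paths of all tested events. The same numbers gave 0.28, 0.29 and 0.40 between scramble siRNA and Lipofectamine and 0.19, 0.11 and 0.17 between SRSF1 siRNA and Lipofectamine. Every value was over 0.1, so by this rule these samples were treated as paired. Between SRSF1 siRNA and scramble siRNA the values were 0.13, 0.10 and 0.04, and those samples were not. The rule thus paired each siRNA condition with Lipofectamine but not with the other. Most of these correlations are weak, and the labels do not state a pairing. The block is given beside the results against Lipofectamine where it changed a call. Alternatives covered the filter, the summary of a gene, the test, centring, single hybridizations, the replicate number, the block and each sample left out. With the replicate number, the spread between sample numbers did not enter the p-values. Leaving out a number in every condition was added after seeing the data.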

Additional observations from a re-analysis of the deposited data

How the results depend on the processing

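The calls of VIM, CDH2, ZEB1 and CDH1 as lower with SRSF1 siRNA than with scramble siRNA held under every alternative in which the gene was tested. With the median of the references, ZEB1 lay under the filter and was not tested. With the mean of all paths of a gene, the falls were smaller (-0.76 for VIM, -0.24 for ZEB1 and -0.38 for CDH2). The cause of the changes below was not tested. The 4 events of the main comparison became 1 under a 50% filter, 9 with the replicate number as the biological replicate and 7 with the replicate block, where the numbers did not pair the samples by the rule used (0.13, 0.10 and 0.04). The block added VIM event 10 (adjusted p = 0.0104) and the FN1 events 14 (0.00133) and 18 (9.04e-06), and ZEB1 event 11 was lost with the larger one-sided p (0.254) and with hybridization 3 alone (0.892). The block moved single gene calls only where given above. For SRSF1 siRNA against Lipofectamine, the 2 events became 1 under the 50% filter, with centred arrays and with hybridization 1 or 2 alone, 0 with the larger one-sided p and 5 with the replicate number, and 1 to 3 without 1 sample or sample number. For scramble siRNA against Lipofectamine, the replicate number gave 1 event.

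The 2 genes of that comparison became 0 with no filter, with centred arrays and with each single hybridization, 1 with the median of the references or with identical references counted once, and 0 to 2 without 1 sample or sample number. The called single paths became 63 (main comparison, 33) and 64 (SRSF1 siRNA against Lipofectamine, 27) with the replicate number, and 17 in the latter with hybridization 1. For scramble siRNA against Lipofectamine, the 4 became 2 under the 50% filter, 0 with each single hybridization, 21 with the replicate number and 12 with the block, and 1 to 9 without 1 sample or sample number.

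Values that were not called changed sign near 0. The change of ESRP2 in the main comparison was -0.0017 with centred arrays and -0.055 with hybridization 2. Against Lipofectamine it was 0.0067 and 0.048 for scramble siRNA (centred, hybridization 3) and -0.058 for SRSF1 siRNA (hybridization 2). The change of FN1 from Lipofectamine to scramble siRNA was 0.0031, 0.0070, 0.038 and 0.0021 with the mean of all paths, centred arrays and hybridizations 1 and 2. The difference between the paths was -0.15 and -0.16 in EPCAM event 5 (hybridizations 2 and 3) and 0.059 in ZEB1 event 29 (hybridization 1). Without 1 sample, ESRP2 ranged from -0.0088 to 0.059 in the main comparison, from -0.073 to 0.055 for scramble siRNA and from -0.054 to 0.074 for SRSF1 siRNA against Lipofectamine. FN1 ranged from -0.016 to 0.518, from -0.466 to 0.299 and from -0.226 to 0.539 in the same order, and EPCAM event 5 from -0.024 to 0.276. Without a sample number in every condition, ESRP2 gave -0.012 (number 2), 0.083 (1) and -0.081 (2) in that order, FN1 0.021 and 0.186 (1 and 2) for scramble siRNA against Lipofectamine, and EPCAM event 5 -0.032 (1).

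The gene signals of ZEB1 and EPCAM lay near the filter and that of ESRP1 well below it, although single paths of each gene exceeded it. How far these values stood above the background of the array was not measured here.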
